A study of Mus musculus with 7 samples.

Results

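The semaphorins, plexins and neuropilins were examined as 1 ligand and receptor family in single-nucleus RNA-seq of the mouse posterolateral cortical amygdala (plCoA), an olfactory cortical area. Members were every gene of the count tables whose symbol starts with Sema and a digit, starts with Plxn, or is Nrp1 or Nrp2, which gave 34 of 32285 genes. These were 20 semaphorins, 9 plexins, 2 neuropilins and 3 antisense transcripts inside the Plxna4 gene. The study set the anterior domain (aplCoA) beside the posterior domain (pplCoA), each dissected from C57BL6J male mice aged 8 weeks. Nuclei were sorted by fluorescence, and each domain had 3 replicates, of which aplCoA replicate 1 was the sum of 2 libraries. All mice were of 1 strain with no treatment named in the labels. Dissected tissue pieces were pooled for each replicate, so that animals within a replicate cannot be told apart. Nothing in the labels tied a replicate number of one domain to the same number in the other.

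Semaphorins are secreted, membrane-spanning or lipid-anchored proteins that steer growing axons and dendrites, synapses and migrating cells. Plexins are their signalling receptors, and neuropilins are co-receptors that class 3 semaphorins need in most cases to reach plexins of the A group. In adult brain they remain present in neurons, in cells of the oligodendrocyte lineage, in microglia and in the meninges.

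Promoter sequences are shown for 4 members that the comparisons of cell classes describe in detail, namely the ligand Sema3e and its receptor Plxnd1, the ligand Sema5b, and the receptor Plxnb3. Each covers 250 bases before to 50 bases after the RefSeq start site on GRCm38.p6, read in the direction of the gene. They lie at chr5:14025026-14025325 (+) for Sema3e, chr6:115994956-115995255 (-) for Plxnd1, chr16:35541112-35541411 (+) for Sema5b and chrX:73756853-73757152 (+) for Plxnb3. Capitals mark matches, on either strand, to the SOX motifs ACAAAG and ACAATG and to the E-boxes CAGCTG and CAGATG, letters that SOX and bHLH transcription factors bind.
Sema3e: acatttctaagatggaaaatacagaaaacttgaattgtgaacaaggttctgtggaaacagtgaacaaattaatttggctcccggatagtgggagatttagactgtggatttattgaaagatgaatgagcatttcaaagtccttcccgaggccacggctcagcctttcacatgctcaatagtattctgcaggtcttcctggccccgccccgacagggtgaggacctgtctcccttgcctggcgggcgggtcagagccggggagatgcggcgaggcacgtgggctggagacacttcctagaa
Plxnd1: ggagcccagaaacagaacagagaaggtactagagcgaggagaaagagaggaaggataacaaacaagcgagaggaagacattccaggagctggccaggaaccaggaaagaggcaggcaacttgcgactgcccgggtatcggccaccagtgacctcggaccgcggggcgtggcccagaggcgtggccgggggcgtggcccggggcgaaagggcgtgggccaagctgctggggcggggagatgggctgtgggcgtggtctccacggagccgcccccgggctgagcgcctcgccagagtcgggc
Sema5b: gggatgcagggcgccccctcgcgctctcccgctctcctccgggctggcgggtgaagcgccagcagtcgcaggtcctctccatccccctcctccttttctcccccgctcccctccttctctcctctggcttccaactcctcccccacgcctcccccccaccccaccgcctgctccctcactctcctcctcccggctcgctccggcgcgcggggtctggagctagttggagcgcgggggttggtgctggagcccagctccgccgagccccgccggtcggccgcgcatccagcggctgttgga
Plxnb3: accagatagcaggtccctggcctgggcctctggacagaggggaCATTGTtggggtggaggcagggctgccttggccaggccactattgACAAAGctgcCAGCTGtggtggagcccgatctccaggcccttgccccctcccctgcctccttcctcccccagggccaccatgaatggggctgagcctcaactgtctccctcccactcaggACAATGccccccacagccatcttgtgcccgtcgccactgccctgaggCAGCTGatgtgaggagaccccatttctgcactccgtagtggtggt

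The Plxnb3 window held 5 matches, which were an opposite-strand ACAATG at base -207 (CATTGT as printed), ACAAAG at -162, CAGCTG at -152, ACAATG at -42 and CAGCTG at 5, counted from the start site. The other 3 windows held none of these letters. Of 32851 promoters of the same length, 18.7% held ACAAAG, 12.6% ACAATG, 16.3% CAGCTG and 17.2% CAGATG. A promoter was found for 26 of the 34 members.

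The 7 libraries held 50812605 to 129624583 unique molecular identifiers (UMIs), and 46412 nuclei were kept, 4033 to 9705 per library. Clustering with all members left out of the variable genes gave 19887 glutamatergic neurons, 5115 GABAergic neurons, 9752 astrocytes, 3641 oligodendrocyte precursors (OPCs), 378 newly formed oligodendrocytes (NFOLs), 1451 mature oligodendrocytes (MOLs), 2805 microglia, 265 macrophages, 1854 vascular leptomeningeal cells (VLMCs), 1051 arachnoid barrier cells (ABCs) and 163 Cajal-Retzius-like neurons. Endothelial cells (16 nuclei) and mural cells (34) were too few for levels. Levels are counts per 1000000 UMIs of a class (CPM), summed over the nuclei of each replicate. Since intronic UMIs are counted, long genes score higher, and a level is compared only with the same gene in other classes. Replicates were whole pools, so that the SD given with each mean is over 6 replicates unless another n is named. Library pairs shared 6 to 40 barcodes. Markers of glutamatergic neurons were counted in every other class: over the GABAergic, glial, immune and leptomeningeal classes the list ran at 4.12% (NFOLs) to 14.6% (macrophages) of its own level, with 5.65% in GABAergic neurons. It stood at 54.0% in Cajal-Retzius-like nuclei and at 81.1% in the 16 endothelial nuclei. How much of this was free RNA, doublets left in or the cells' own RNA was not tested. All class markers were found in the class they name with 2 exceptions, since 5 of 6 glutamatergic markers and 4 of 6 ABC markers reached 10 CPM and 1 ABC marker was at 0. Mitochondrial shares were higher in aplCoA, with replicate medians for glutamatergic nuclei of 0.0143 to 0.0204% against 0.00823 to 0.0111%, and their part in any difference between domains was not tested.

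**Figure D1:**
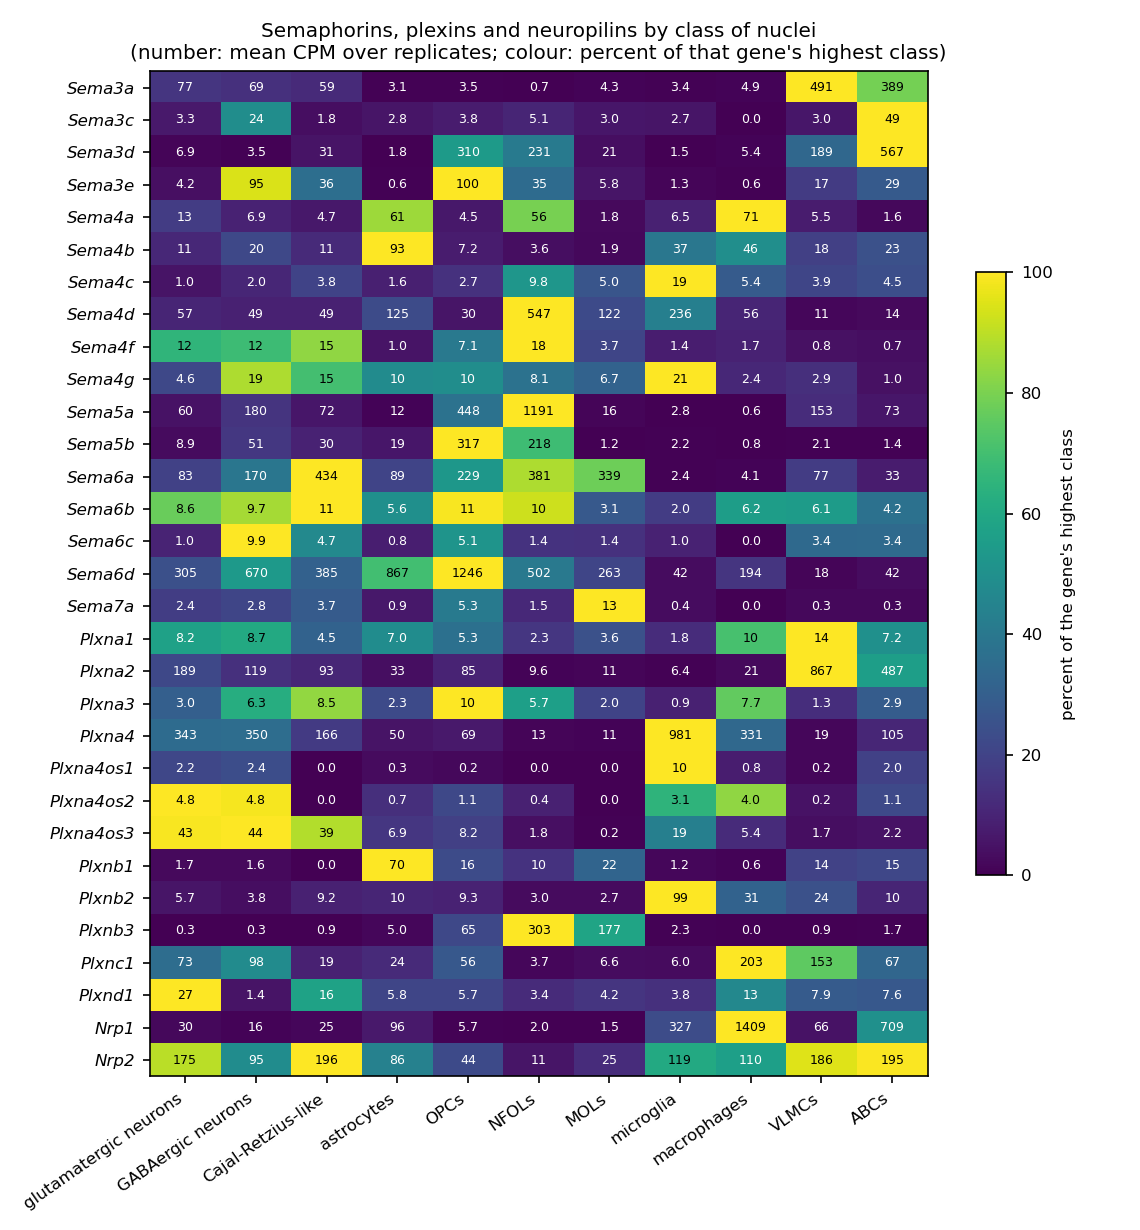
Levels of members by class (columns), as mean CPM over replicates (numbers) and as a percent of each gene's own highest class (colour), with ligands above and receptors and antisense transcripts below. The brightest cells of Plxna4, Plxnb1 and Plxnb3 fall in microglia (981), astrocytes (70) and NFOLs (303), and Sema3b, Sema3f and Sema3g are not drawn.

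Of the 34 members, 25 passed the detection filter (seen in at least 10% of the nuclei of a class) in at least 1 test. The other 9, Plxna3, Plxna4os1, Plxna4os2, Sema3b, Sema3f, Sema3g, Sema4c, Sema6c and Sema7a, were not tested and are given by their levels.

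Among the secreted class 3 ligands, the axon repellent Sema3a was highest in VLMCs at 491 ± 76.2 CPM (replicates 385 to 601), with ABCs next at 389 ± 139 (228 to 566). The ranges of these meningeal classes overlapped, and the next classes, glutamatergic and GABAergic neurons, lay at 76.5 ± 19.2 and 69.0 ± 8.52. Sema3c was highest in ABCs at 48.7 ± 23.0 and then in GABAergic neurons at 23.9 ± 3.64, with overlapping ranges. Sema3d, a ligand of neuropilin complexes, was highest in ABCs at 567 ± 236, followed by OPCs at 310 ± 22.9 and NFOLs at 231 ± 52.6. The ranges of ABCs and OPCs overlapped for Sema3d. Sema3e, the ligand that signals through Plxnd1 without a neuropilin, stood at 100.2 ± 9.84 in OPCs and 94.7 ± 19.4 in GABAergic neurons, and these did not differ beyond their spread. Sema3b was highest in VLMCs at 15.3 ± 4.05 with ABCs at 3.22 ± 5.42, and the ranges overlapped. Sema3f reached 1.81 ± 3.14 in Cajal-Retzius-like nuclei (n = 3) and 1.58 ± 2.02 in ABCs. Sema3g had 9 UMIs in all, with 0.0306 ± 0.0282 CPM in glutamatergic neurons and 0.0221 ± 0.0542 in astrocytes.

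Among the membrane-spanning ligands, the class 4 genes had their highest means in glial or immune classes, although Sema4f and Sema4g were not separated from a class of neurons. Sema4d, the ligand of plexin B receptors, was highest in NFOLs at 547 ± 64.2 CPM and then in microglia at 236 ± 14.7, and the ranges did not overlap. Sema4a, a ligand known from immune cells, stood at 71.0 ± 29.9 in macrophages, 60.7 ± 7.90 in astrocytes and 56.4 ± 15.7 in NFOLs, which overlapped. Sema4b was highest in astrocytes at 93.4 ± 6.73 (86.0 to 102), above macrophages at 46.1 ± 26.8 with no overlap. Sema4c was highest in microglia at 18.7 ± 4.81 and next in NFOLs at 9.84 ± 5.26, with overlap. Sema4f stood at 17.7 ± 19.3 in NFOLs and 14.8 ± 8.50 in Cajal-Retzius-like nuclei (n = 3), and Sema4g at 21.3 ± 3.63 in microglia and 18.7 ± 1.46 in GABAergic neurons. Neither of these last pairs was separated.

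Of the class 5 and 6 ligands, Sema5a, Sema5b and Sema6d were highest in oligodendrocyte precursors or newly formed oligodendrocytes. Sema5a, a guidance protein with thrombospondin repeats, reached 1191 ± 342 CPM in NFOLs and 448 ± 40.2 in OPCs, with no overlap. Its relative Sema5b was highest in OPCs at 317 ± 23.7 and then in NFOLs at 218 ± 54.4, with overlap. Sema6d was highest in OPCs at 1246 ± 75.1 (1130 to 1344) and next in astrocytes at 867 ± 121 (726 to 1018). Sema6a, a ligand of Plxna2 and Plxna4, was highest in Cajal-Retzius-like nuclei at 434 ± 101 (n = 3), followed by NFOLs at 381 ± 92.5 and MOLs at 339 ± 28.6, all within each other's spread. Sema6b stood at 11.2 ± 2.49 in Cajal-Retzius-like nuclei (n = 3) and 11.04 ± 0.900 in OPCs, and Sema6c at 9.87 ± 2.11 in GABAergic neurons and 5.09 ± 1.81 in OPCs. Both pairs of ranges overlapped. Sema7a, the lipid-anchored ligand of Plxnc1 and integrins, was highest in MOLs at 13.1 ± 4.08 and next in OPCs at 5.32 ± 2.13, with overlap.

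The receptors were likewise highest in different classes. Plxna2 was highest in VLMCs at 867 ± 104 CPM and next in ABCs at 487 ± 88.4, without overlap. Plxna4, a partner of neuropilins for Sema3a, was highest in microglia at 981 ± 73.8 (882 to 1091), 2.80 times the level in GABAergic neurons (350 ± 18.5), and glutamatergic neurons lay beside the latter at 343 ± 21.3. Plxna1 was low, at 14.3 ± 1.67 in VLMCs and 10.2 ± 12.2 in macrophages, and Plxna3 stood at 10.1 ± 3.19 in OPCs and 8.46 ± 8.62 in Cajal-Retzius-like nuclei (n = 3). The ranges overlapped for both genes. The plexin B genes divided the glia: Plxnb1 was highest in astrocytes at 69.8 ± 7.75 with MOLs next at 22.5 ± 11.6, Plxnb2 in microglia at 98.8 ± 16.0 with macrophages next at 30.9 ± 22.5, and Plxnb3 in NFOLs at 303 ± 49.7 with MOLs next at 177 ± 13.1. None of these 3 pairs of ranges overlapped. Plxnc1 was highest in macrophages at 203 ± 54.4 and next in VLMCs at 153 ± 24.0, with overlap. Plxnd1 was the plexin with its highest level in glutamatergic neurons, at 27.5 ± 4.53, above Cajal-Retzius-like nuclei at 15.8 ± 4.09 (n = 3).

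The co-receptor Nrp1 was highest in macrophages at 1409 ± 413 CPM and next in ABCs at 709 ± 152, with overlap. Nrp2 was nearly level at the top, at 196 ± 85.4 in Cajal-Retzius-like nuclei (n = 3), 195 ± 69.4 in ABCs, 186 ± 30.4 in VLMCs and 175 ± 15.6 in glutamatergic neurons. The antisense transcripts lie on chromosome 6 inside Plxna4 and on the opposite strand, so their counts are uncertain wherever a read's strand is misassigned. Plxna4os3 stood at 43.8 ± 7.70 in GABAergic and 43.4 ± 3.60 in glutamatergic neurons, Plxna4os2 at 4.85 ± 1.30 in glutamatergic and 4.77 ± 1.26 in GABAergic neurons, and Plxna4os1 at 10.2 ± 2.34 in microglia and 2.43 ± 0.201 in GABAergic neurons.

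Glutamatergic and GABAergic neurons were compared within replicates to ask on which neurons each side of the system sits. Of 20 members tested, 4 were at least 2-fold higher in glutamatergic neurons and 5 in GABAergic neurons, beside 9.16% and 6.05% of all genes tested. The 4 were the receptors Plxnd1, Nrp1 and Nrp2 and the ligand Sema4a, and the 5 were the ligands Sema3e, Sema4g, Sema5a, Sema5b and Sema6d. Of the 9, 6 reached the filter of 10% of nuclei only in the class where they were higher (Nrp1, Plxnd1, Sema3e, Sema4a, Sema4g and Sema5b), and a member that enters this way had to differ in detection. With no filter, 8 of the 9 were called again, and Sema6d, at -0.97, was not. Differences in this and the next comparisons come from the quasi-likelihood test of edgeR, adjusted over all genes tested (Benjamini-Hochberg), with replicate as a block.

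Plxnd1 (chromosome 6, 115954811 to 115995005) ranged in glutamatergic neurons from 23.2 to 33.9 CPM with a median of 26.9, and in GABAergic neurons from 0.780 to 1.99 with a median of 1.54. No replicate overlapped, and the log2 difference was 4.38 ± 0.13 (SE), with an edgeR adjusted p of 1.91e-08. It was seen in 26.8% of glutamatergic and 1.23% of GABAergic nuclei, and with no filter on low genes the difference was 4.43 (edgeR adjusted p = 2.68e-12). The GABAergic mean was 5.15% of the glutamatergic mean, beside 5.65% for the list of glutamatergic markers, so that Plxnd1 in GABAergic neurons was not separated from the level of that list. Its ligand Sema3e (chromosome 5, 14025276 to 14256689) ranged from 2.42 to 6.03 with a median of 4.16 in glutamatergic neurons and from 70.4 to 125 with a median of 90.8 in GABAergic neurons. The difference was -4.38 ± 0.11 with an edgeR adjusted p of 1.12e-08, and -4.32 with no filter (edgeR adjusted p = 4.87e-13), where it was seen in 3.30% of glutamatergic and 28.4% of GABAergic nuclei. The GABAergic marker list ran at 0.903% of its own level in glutamatergic neurons.

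Sema5b (chromosome 16, 35541145 to 35664732) was lower in glutamatergic neurons (3.20 to 15.9 CPM, median 9.09) than in GABAergic neurons (35.9 to 77.6, median 46.0), by -2.43 ± 0.43 on the log2 scale (edgeR adjusted p = 0.000833). Sema4g, Sema5a and Sema6d were lower in the same direction by -1.82 ± 0.12, -1.46 ± 0.16 and -1.02 ± 0.10, and Sema6d lay under a 2-fold difference in 5 of 10 alternatives, down to -0.77 with aplCoA replicates only. With doublets kept, Nrp1 (0.96), Nrp2 (0.98), Sema4a (0.92) and Sema6d (-0.98) lay under a 2-fold difference. Over the 10 alternatives, Nrp1 was called in 8 (down to 0.82), Sema4a in 8 (down to 0.83) and Nrp2 in 7 (down to 0.86). Nrp1, Sema4a and Nrp2 were higher in glutamatergic neurons by 1.12 ± 0.14, 1.05 ± 0.12 and 1.04 ± 0.06. These 6 had adjusted p values between 5.63e-07 and 7.8e-05. Of the 11 members not called, 6 had an adjusted p under 0.05 with less than a 2-fold difference, namely Plxna2 (0.82), Plxna4 (0.13), Plxnc1 (-0.27), Sema4b (-0.79), Sema4d (0.35) and Sema6a (-0.88).

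Neurons were divided further into 15 glutamatergic and 13 GABAergic clusters, of which 12 and 10 had 20 nuclei or more in at least 3 replicates. The values by cluster are descriptions, because the clusters were made from the same nuclei. Glutamatergic clusters carried no subtype name. Of the GABAergic clusters, GABA 2 and GABA 10 were Lamp5-like, GABA 3 Vip-like, GABA 4 Sst-like and GABA 7 Cck-like. Glut 12 had 310 nuclei with a median of 3581 UMIs and was led by genes of several cell types, and, although it was the highest glutamatergic cluster for 9 members, its values are left out of what follows.

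Sema3e was at 287 ± 31.8 CPM in GABA 5 and 192 ± 45.8 in GABA 2, and no UMI of it was found in GABA 10 (n = 3), where 3 of the 1235373 UMIs would be 2.43 CPM, although GABA 2 and GABA 10 were both Lamp5-like. It was also near 0 in GABA 8, at 0.512 ± 1.25. Among glutamatergic clusters its highest level was 37.6 ± 6.95 in Glut 11 (n = 4), and in Glut 1, the largest, it was 0.522 ± 0.356. Plxnd1 had its highest level in Glut 5 at 41.7 ± 6.99, and stood at 3.54 ± 0.959 in Glut 6 (n = 4), 6.16 ± 0.824 in Glut 7 (n = 4) and 6.57 ± 2.52 in Glut 9 (n = 4). These 3 clusters, in which the vesicular glutamate transporter gene Slc17a6 ran from 120.0 to 223 CPM, made up 12.5%, 10.9% and 5.06% of glutamatergic nuclei in aplCoA against 1.30%, 1.497% and 0.498% in pplCoA.

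**Figure D2:**
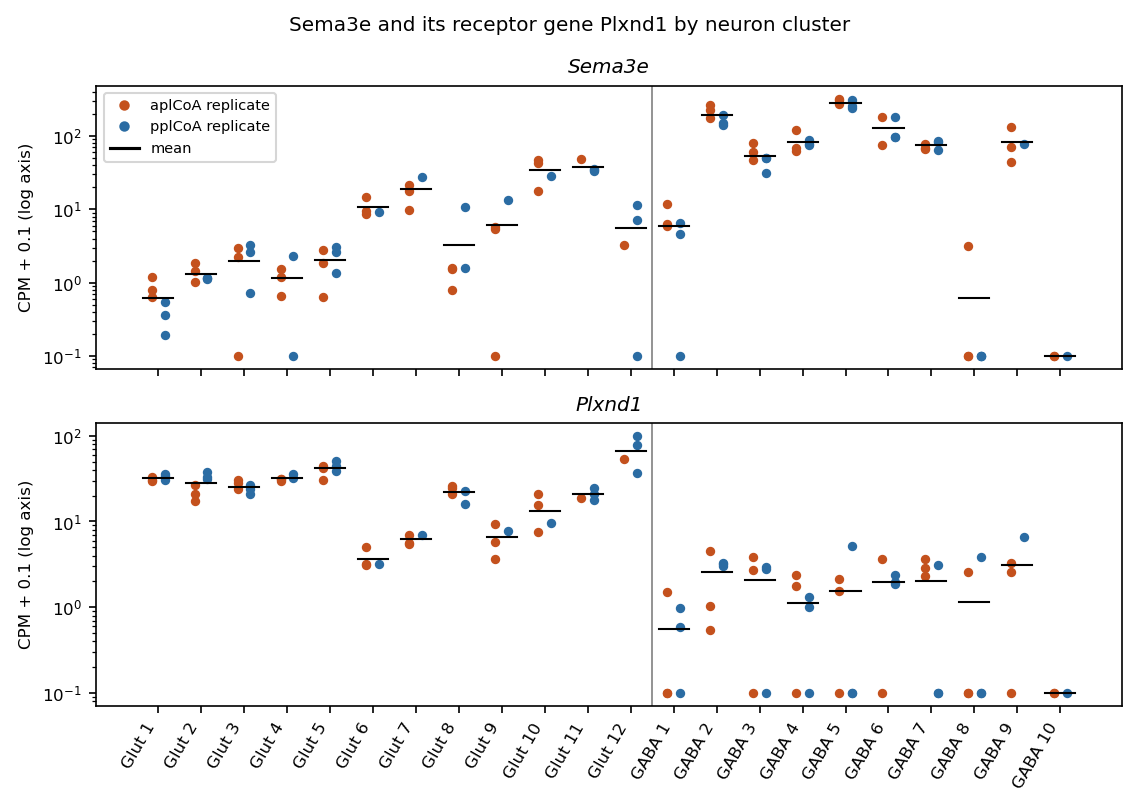
Level of the ligand Sema3e and of its receptor gene Plxnd1 in each neuron cluster (CPM + 0.1, log axis), with 1 point per replicate and a bar at the mean. Sema3e rises in most GABAergic clusters and not in GABA 1, GABA 8 or GABA 10, and Plxnd1 is high in glutamatergic clusters other than Glut 6, Glut 7 and Glut 9.

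Other ligands were uneven over clusters too. Sema5b stood at 312 ± 35.6 CPM in the Vip-like GABA 3 and at 59.9 ± 17.8 in GABA 6 (n = 5), and the ranges did not overlap. GABA 3 held 67.3% of the Sema5b UMIs of GABAergic nuclei in aplCoA and 78.6% in pplCoA. Sema5a was at 663 ± 54.8 in the Lamp5-like GABA 2 and at 371 ± 38.9 in Glut 9 (n = 4). Sema6d was at 1584 ± 147 in GABA 5, 952 ± 119 in Glut 9 (n = 4) and only 73.5 ± 4.72 in GABA 3. Sema3a was at 216 ± 19.0 CPM in Glut 5, 206 ± 49.95 in Glut 6 (n = 4) and 209 ± 36.7 in the Sst-like GABA 4, against 15.3 ± 3.36 in Glut 11 (n = 4). Sema3c was at 172 ± 32.9 in GABA 10 (n = 3) and 1.97 ± 1.63 in GABA 4. Among the receptors, Plxna4 was highest in GABA 1 at 679.6 ± 55.2 CPM and lowest in GABA 6 at 94.4 ± 18.1 (n = 5), and Nrp2 was at 234 ± 22.2 in GABA 5 and 7.86 ± 4.98 in GABA 8.

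Neurons (the mean of glutamatergic and GABAergic) were set against glia (the mean of astrocytes, OPCs, NFOLs, MOLs and microglia). Both means were taken on the log scale, so that classes with very low levels pull the mean of glia down. Of 24 members tested, 10 were at least 2-fold higher in neurons and 5 in glia, beside 22.8% and 14.2% of all genes. Higher in neurons were the receptors and co-receptor Plxna1 (1.19 ± 0.16), Plxna2 (2.99 ± 0.08), Plxna4 (2.65 ± 0.06), Plxnc1 (2.82 ± 0.08) and Nrp2 (1.61 ± 0.07), the ligands Sema3a (4.66 ± 0.14), Sema3e (1.46 ± 0.17), Sema4f (1.60 ± 0.18) and Sema5a (1.03 ± 0.12), and Plxna4os3 (3.70 ± 0.14), all as log2 differences with SE. Higher in glia were the plexin B genes Plxnb3 (-6.68 ± 0.29), Plxnb1 (-2.95 ± 0.25) and Plxnb2 (-1.03 ± 0.19), and the ligands Sema3d (-2.15 ± 0.25) and Sema4d (-1.41 ± 0.05). The largest edgeR adjusted p of the 15 was 6.88e-06, and 8 of the 15 reached the filter on 1 side only (Plxna1, Plxna4os3, Plxnb1, Plxnb2, Plxnb3, Sema3a, Sema3d and Sema4f). With no filter 14 of the 15 were called again, among them Plxnb3 (-6.36) and Plxnb1 (-2.62), and Plxnb2 was not, at -0.71. Plxnb2 lost its call in 5 of 10 alternatives, where it lay under a 2-fold difference, and Sema5a lost it in 3 of 10, among them with doublets kept (0.12) and with classes from marker UMIs (0.33). With doublets kept, Plxna1 (0.94) and Sema3e (0.90) also lay under a 2-fold difference, and Plxna2, Plxna4 and Plxnc1 were at 1.83, 1.77 and 2.07. Such a mean over glia hides their differences: Plxna4 was highest of all in microglia, and Sema3e and Sema5a were higher in OPCs than in glutamatergic neurons. Sema5a stood at 1191 ± 342 CPM in NFOLs and 448 ± 40.2 in OPCs, above both neuron classes, so its call does not hold against these glia. In OPCs, astrocytes, NFOLs, MOLs and microglia, Sema3a lay at or below the fraction of its glutamatergic level at which the glutamatergic marker list was found there.

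Oligodendrocyte precursors, newly formed and mature oligodendrocytes form 1 lineage, and the precursors were compared with the mature cells. Of 12 members tested, 8 were higher in OPCs and 2 in MOLs, beside 23.4% and 15% of all genes, and 7 of the 10 called reached the filter only in OPCs, so that they had to differ in detection. With no filter, the 10 were called again in the same direction, with Sema5b at 7.24, Plxna2 at 2.63, Plxna4 at 2.32 and Plxnc1 at 2.70. Sema5b ranged from 294 to 356 CPM (median 310) in OPCs and from 0 to 3.95 (median 0.465) in MOLs, with no overlap and a log2 difference of 7.16 ± 0.21 (edgeR adjusted p = 5.64e-20). Sema5a fell from 401 to 513 (median 441) in OPCs to 10.5 to 23.6 (median 15.4) in MOLs, a difference of 4.69 ± 0.13. The ligands Sema3e (3.66 ± 0.20), Sema3d (3.53 ± 0.13) and Sema6d (2.14 ± 0.07) and the receptors Plxnc1 (2.62 ± 0.22), Plxna2 (2.55 ± 0.17) and Plxna4 (2.25 ± 0.16) were also higher in OPCs. With doublets kept, the differences were smaller for Plxna2 (1.07), Plxnc1 (1.42), Sema5a (2.94) and Sema5b (4.89), and Plxna4, at 0.47, was not called. Higher in MOLs were Sema4d (-2.09 ± 0.11) and Plxnb3 (-1.54 ± 0.09). The largest adjusted p of the 10 was 5.84e-11. Nrp2 (0.54) and Sema6a (-0.69) had adjusted p values of 0.0032 and 1.5e-08 with less than a 2-fold difference.

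The NFOLs, which were not part of that test, lay outside the range between the other stages for several members. Plxnb3 (chromosome X, 73757090 to 73772514) was at 57.0 to 73.0 CPM in OPCs, 229 to 364 in NFOLs and 165 to 196 in MOLs, so that no pair of stages overlapped. Sema4d was at 25.3 to 37.7, 494 to 671 and 108 to 140 in the same order. Sema5a was at 587 to 1540 in NFOLs, above every OPC replicate. Plxna2, Plxna4 and Plxnc1, by contrast, were at 9.62 ± 5.56, 13.04 ± 7.602 and 3.73 ± 2.79 in NFOLs, near the MOL levels of 11.2 ± 5.06, 11.3 ± 3.90 and 6.57 ± 5.18. In MOLs these 3 receptors were at or below the share of their glutamatergic level at which the glutamatergic marker list was found there.

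**Figure D3:**
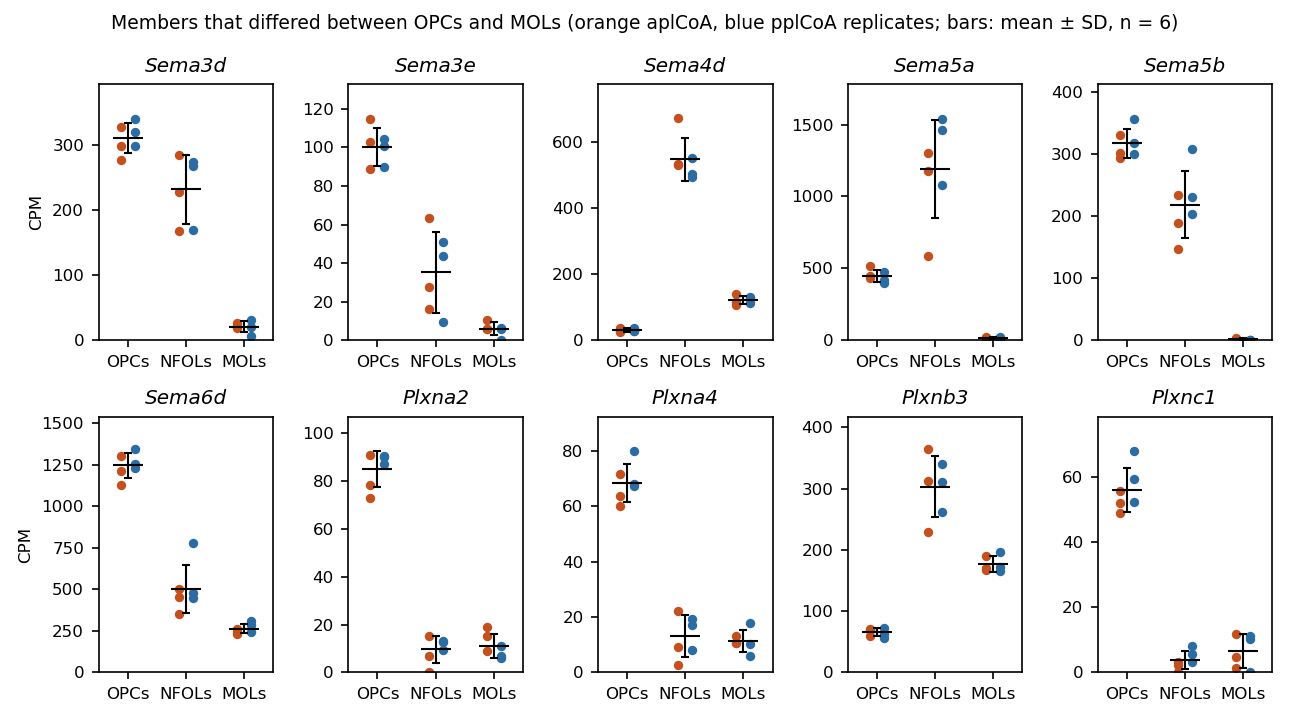
Levels (CPM) of the 10 members called between OPCs and MOLs, with NFOLs between them, 1 point per replicate and mean ± SD over 6 replicates. Sema5a, Sema4d and Plxnb3 peak in NFOLs, and Plxna2, Plxna4 and Plxnc1 are low from NFOLs on.

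Microglia and macrophages differed in 7 of 9 members tested, of which 3 were higher in microglia and 4 in macrophages, beside 11.8% and 10.5% of all genes. Of the 7, Plxnc1 and Sema4a reached the filter in macrophages alone. Macrophages rested on 11 to 101 nuclei per replicate. Plxna4 ranged from 882 to 1091 CPM (median 962) in microglia and from 214 to 437 (median 322) in macrophages, a log2 difference of 1.61 ± 0.16 (edgeR adjusted p = 3.24e-11). Sema4d (2.23 ± 0.24) and Plxnb2 (1.19 ± 0.28, adjusted p = 0.000695) were also higher in microglia. Nrp1 ranged from 290 to 392 (median 318) in microglia and from 637 to 1868 (median 1467) in macrophages, a difference of -2.11 ± 0.15. Plxnc1 (-4.84 ± 0.28), Sema4a (-3.41 ± 0.38) and Sema6d (-2.24 ± 0.22) were higher in macrophages. The 2 members not called were Nrp2 (0.07) and Sema4b (-0.34).

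In the meninges, VLMCs are fibroblast-like cells and ABCs form the barrier layer of the arachnoid. Of 11 members tested, 2 were higher in VLMCs and 4 in ABCs, beside 12.9% and 11.9% of all genes. Of the 6 called, Plxna4 and Sema3c reached the filter in ABCs alone. Nrp1 ranged from 35.2 to 105 CPM (median 64.8) in VLMCs and from 590 to 987 (median 648) in ABCs, a log2 difference of -3.48 ± 0.16 (edgeR adjusted p = 4.01e-12). Sema3c (-3.46 ± 0.33), Plxna4 (-2.30 ± 0.20) and Sema3d (-1.54 ± 0.16) were higher in ABCs with it, and Sema5a (1.24 ± 0.14) and Plxnc1 (1.23 ± 0.14) were higher in VLMCs. With doublets kept, Plxna4 was at -1.09. Plxna2 (0.85), Sema3a (0.39), Sema6a (0.89) and Sema6d (-0.94) had adjusted p values under 0.05 with less than a 2-fold difference, and Nrp2 differed by -0.10.

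The domains were compared in each class with 3 replicates a side, by edgeR with no block. In summed nuclei, fewer nuclei of a subtype and less RNA per nucleus cannot be told apart. In glutamatergic neurons 7 of 18 members were called at an adjusted p under 0.05, 4 higher in aplCoA and 3 lower, beside 20.7% of all genes (10.1% higher and 10.6% lower). The 4 were the ligands Sema4a, Sema5a, Sema5b and Sema6d, and the 3 were the receptors Plxnd1 and Nrp2 and the antisense Plxna4os3. The median change over the 18 was 0.07. Leaving out pplCoA replicate 3 lowered the count to 4 (11.1% of all genes), and leaving out either aplCoA replicate 1 or pplCoA replicate 2 lowered it to 3 (9.87% and 8.54% of all genes), so that the share over all genes fell as well. With nuclei assigned to classes by their own marker UMIs in place of clusters, 4 were called, and Sema5a at 0.13 and Plxnd1 at -0.16 were not among them.

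Sema5b in glutamatergic neurons was at 11.9, 15.9 and 12.3 CPM in aplCoA replicates 1 to 3 and at 6.27, 3.71 and 3.20 in those of pplCoA. The domains did not overlap, and the log2 change was 1.484 ± 0.24 (edgeR adjusted p = 0.00653). Sema5b reached the filter only through aplCoA, being seen in 11.1% of its glutamatergic nuclei against 5.39% in pplCoA, and with no filter the change was 1.485 (edgeR adjusted p = 8.85e-05). Sema6d (chromosome 2, 124089969 to 124667770) was at 377, 372 and 380.5 against 281, 211 and 205, a change of 0.62 ± 0.11 (edgeR adjusted p = 0.00852). Sema5a (chromosome 15, 32244810 to 32696341) was at 89.6, 62.7 and 70.4 against 41.3, 43.0 and 53.8, a change of 0.61 ± 0.14 (edgeR adjusted p = 0.019). None of these 3 ligands overlapped between domains, and pplCoA replicate 1 lay nearest to aplCoA for Sema5b and Sema6d. Of the 18 members tested, 7 did not overlap. The share over all genes was not counted for this, so the count is not read as a result about the members. Sema4a was at 15.1, 13.7 and 14.1 against 11.4, 10.6 and 11.2, a change of 0.29 ± 0.08 (edgeR adjusted p = 0.044). Markers of cells rich in Sema5b ran higher in aplCoA in glutamatergic neurons, with ranges that overlapped at their ends. The 5 GABAergic markers, none at 0 and none at 10 CPM, summed to 9.94 to 17.2 CPM in aplCoA and 4.24 to 10.0 in pplCoA. The 5 OPC markers, none at 0 but only 2 at 10 CPM, summed to 1221 to 1450 and 994 to 1237. The class also held Glut 13 (97 nuclei), with the GABAergic markers Gad2 and Dlx6os1 among its leading genes and Slc17a7 at 15.6 CPM. Glut 13 made up 0.822% of glutamatergic nuclei in aplCoA and 0.0712% in pplCoA. The part of these markers and of Glut 13 in the changes was not tested.

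Plxnd1 was at 23.2, 24.1 and 23.4 CPM in aplCoA and at 30.6, 33.9 and 29.7 in pplCoA, a change of -0.50 ± 0.08 (edgeR adjusted p = 0.00653). Plxna4os3 was at 40.9, 40.9 and 40.0 against 43.1, 49.0 and 46.4 (-0.27 ± 0.07, edgeR adjusted p = 0.0379). Nrp2 was at 164, 151 and 178 against 186, 194 and 178, and its domains overlapped (-0.26 ± 0.07, edgeR adjusted p = 0.0413). Sema4a was called in the same direction in 5 of 26 alternatives, Plxna4os3 in 8 of 26 and Nrp2 in 11 of 26, and with no filter Sema4a (edgeR adjusted p = 0.0885) and Plxna4os3 (edgeR adjusted p = 0.0569) were not called. Sema5a was called in 14 of 26, Plxnd1 in 16 of 26, Sema6d in 19 of 26 and Sema5b in 23 of the 24 that tested it. Glut 1 alone and Glut 3 alone are not among these 24, since Sema5b missed the filter there. All alternatives except edgeR's own filter and no filter used the filter that Sema5b reached only through aplCoA over the class. Of the other 11 members, 4 more had an unadjusted p under 0.05.

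In GABAergic neurons 3 of 16 members were called, 1 higher in aplCoA and 2 lower, beside 10.2% of all genes (4.58% higher and 5.64% lower). Sema3e was at 96.4, 107 and 125 CPM in aplCoA and at 83.7, 85.3 and 70.4 in pplCoA, a change of 0.40 ± 0.11 (edgeR adjusted p = 0.0312). Sema5b was at 40.0, 36.2 and 35.9 against 52.0, 77.6 and 63.7, a change of -0.81 ± 0.13 (edgeR adjusted p = 0.00383). Sema3a was at 59.0, 62.6 and 64.5 against 73.9, 82.0 and 71.8, a change of -0.35 ± 0.09 (edgeR adjusted p = 0.02). The domains did not overlap for any of the 3, and they did not overlap for 5 of the 16 members tested. In astrocytes, where no member was called, 4 of 10 did not overlap. Shares over all genes were not counted for either class, so these counts are not read as results about the members. In GABAergic neurons the 5 OPC markers, none at 0 and 3 at 10 CPM, summed to 733 to 809 CPM in aplCoA and 831 to 916 in pplCoA. The part of these markers in the change of Sema5b was not tested. The median change over the 16 was -0.05. Over the alternatives that tested them, Sema3e was called in the same direction in 11 of 27, Sema3a in 13 of 26 and Sema5b in 19 of 25. Leaving out replicate 2 of aplCoA or of pplCoA lowered the count to 1 (5.86% and 3.77% of all genes), and leaving out aplCoA replicate 1, aplCoA replicate 3 or pplCoA replicate 3 lowered it to 2 (3.23%, 10.2% and 8.27% of all genes).

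**Figure D4:**
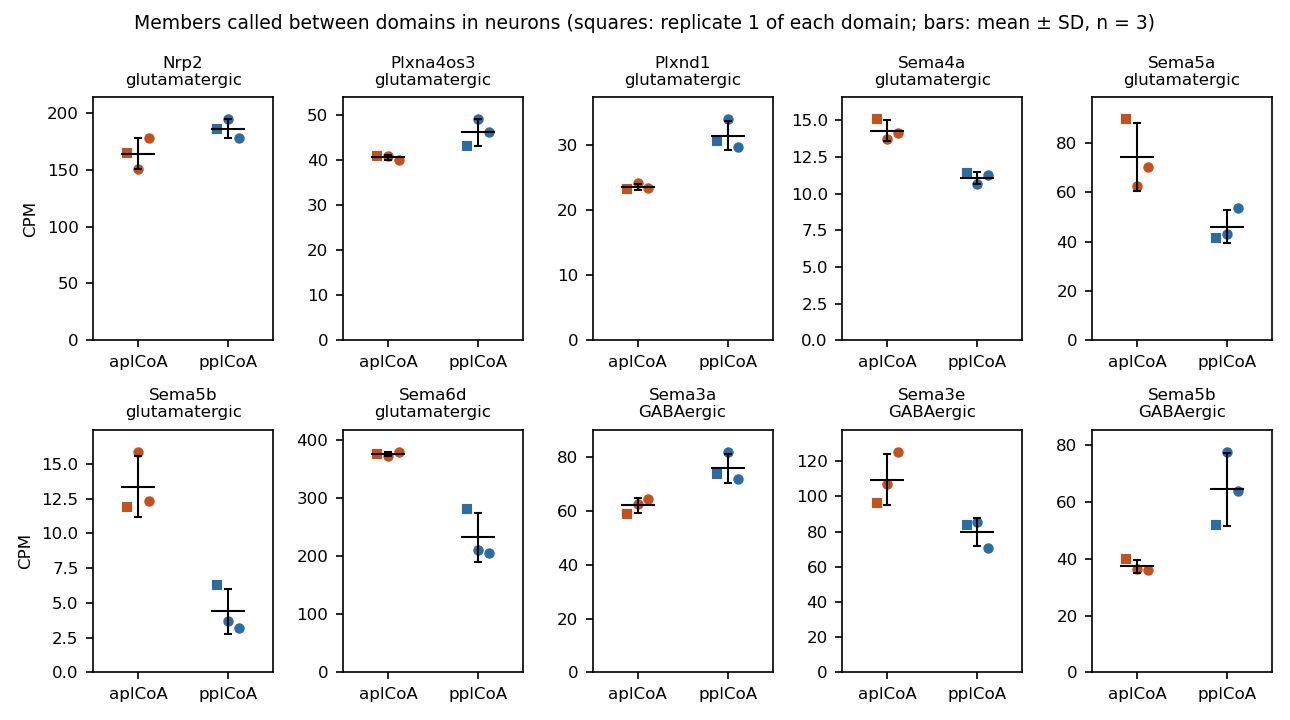
Levels (CPM) of the members called between domains in glutamatergic and GABAergic neurons, with squares for replicate 1 of each domain, circles for the others and mean ± SD over 3 replicates. Sema5b lies higher in aplCoA in glutamatergic neurons and lower in GABAergic neurons, and Nrp2 alone overlaps between domains.

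Whether a change differed between neuron types was tested as an interaction in 13 members, of which 2 were called, beside 5.17% of all genes. The change of Sema5b was 2.22 ± 0.29 higher on the log2 scale in glutamatergic than in GABAergic neurons (edgeR adjusted p = 0.00359), and that of Sema6d 0.47 ± 0.10 higher (edgeR adjusted p = 0.022). Sema5b met the filter in glutamatergic neurons only through aplCoA, and with no filter its difference was 2.23. For Sema5a the difference was 0.67 ± 0.21 with an adjusted p of 0.105, and for Sema3a 0.64 ± 0.17 with an adjusted p of 0.0606.

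No member was called between domains in the other classes. In astrocytes, where 0.537% of all genes were called, 0 of 10 members passed the edgeR test and 3 had an unadjusted p under 0.05. The smallest p was that of Sema6d, at 726, 753 and 841 CPM in aplCoA and 873, 1018 and 994 in pplCoA (-0.34 ± 0.09, edgeR adjusted p = 0.117), and DESeq2 called 1 member there. In OPCs (6.53% of all genes called), 0 of 12 were called, none had an unadjusted p under 0.05, and Plxnc1 had the smallest (-0.22 ± 0.13, adjusted p = 0.377). In NFOLs (0% of all genes called), 0 of 10 were called, 1 had an unadjusted p under 0.05, and this was Sema4f (1.55 ± 0.69, edgeR adjusted p = 0.522). Sema4f was seen in 7.41% of all NFOL nuclei and so reached the filter in 1 domain only. Its highest replicate was at 55.1 CPM and the next at 18.7. With nuclei assigned to NFOLs by their own marker UMIs (373 nuclei), 8 of 13 members were called, beside 12.8% of all genes under that assignment. Among these, Sema3a was at 271, 265 and 239.6 CPM in aplCoA and 38.2, 19.2 and 49.6 in pplCoA, against a mean of 0.699 in the NFOLs made from clusters. In MOLs (1.57%), 0 of 4 were called, none had an unadjusted p under 0.05, and Sema6d had the smallest (-0.16 ± 0.14, adjusted p = 0.71).

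In microglia (0%), 0 of 7 were called, none had an unadjusted p under 0.05, and Plxna4 had the smallest (-0.16 ± 0.07, adjusted p = 0.925). In VLMCs (0.0174%), 0 of 8 were called and 1 had an unadjusted p under 0.05, which was Nrp1 (-0.60 ± 0.26, adjusted p = 0.58). In ABCs (0%), 0 of 11 were called and 2 had an unadjusted p under 0.05, of which Sema6a had the smaller p, with 27.6, 67.8 and 58.4 CPM in aplCoA and 14.2, 20.8 and 11.1 in pplCoA (1.69 ± 0.54, edgeR adjusted p = 0.492). Sema6a reached the filter there only through aplCoA. DESeq2 called 0 members in OPCs, NFOLs, MOLs, microglia, VLMCs and ABCs. On simulated counts with 3 replicates a side, the test found 99% of changes of 1 on the log2 scale in glutamatergic neurons, against 38.5% for NFOLs. Every simulated gene had the same set spread between replicates, and no difference in cluster shares was simulated. These percentages are therefore not the power of the tests on the data.

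The domains also held neuron clusters in different shares, and the part of this in the changes above was not tested. Glut 1, Glut 2 and Glut 3 made up 16.3%, 4.53% and 6.89% of glutamatergic nuclei in aplCoA and 37.3%, 23.3% and 17.1% in pplCoA, while Glut 4 made up 18.9% and 1.04%. In pplCoA replicate 1, Glut 2 held 10.5% and Glut 7 4.45%, against 28.8% and 30.6% for Glut 2, and 0% and 0.0421% for Glut 7, in the other 2 replicates of pplCoA. The Vip-like GABA 3, which held most Sema5b UMIs of GABAergic neurons, was 10.8% of GABAergic nuclei in aplCoA and 21.8% in pplCoA, and GABA 5, the highest for Sema3e, was 13.3% and 5.47%.

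With equal weight for each cluster that had 20 nuclei in every replicate, 2 members were called in glutamatergic neurons, beside 5.81% of all genes, from limma over Glut 1, Glut 2, Glut 3 and Glut 5. These were Sema5b (1.32, limma adjusted p = 0.031) and Sema6a (-0.40, limma adjusted p = 0.040). The fit left out Glut 6 and Glut 4, which held 21.2% and 20.1% of the Sema5b UMIs of glutamatergic nuclei in aplCoA. It therefore does not cover the whole class. Genes entered by the filter over all nuclei, which Sema5b reached only through aplCoA. Sema5a changed by 0.89 (adjusted p = 0.107), Sema6d by 0.31 (0.137) and Plxnd1 by -0.23 (0.155), and none of these passed. In GABAergic neurons, over 7 clusters, 0 members were called, beside 6.06% of all genes. There Sema5b was at 0.38 and Sema3a at 0.26, opposite in sign to their changes over all nuclei, and Sema3e, the 1 member with an unadjusted p under 0.05, was at 0.32 (adjusted p = 0.190).

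Finer clusters, at resolutions chosen after seeing the data, left 1 call. At a resolution of 0.4 (20 glutamatergic and 18 GABAergic clusters, of which 4 and 6 could be compared), 1 member was called in glutamatergic neurons, beside 3.83% of all genes, and 0 in GABAergic neurons, beside 5.54%. At 0.8 (27 and 24 clusters, again 4 and 6 compared) the counts were 1 and 0, beside 2.89% and 3.6%. The member called was Sema5b both times, with log2 changes of 1.23 ± 0.25 (limma adjusted p = 0.0296) and 1.29 ± 0.22 (limma adjusted p = 0.020). Sema6a, called at the first resolution, was at -0.03 and -0.08. Sema5a in glutamatergic neurons, at 0.61 over all nuclei, was at 1.22 (adjusted p = 0.0566) and 0.73 (0.0728). Sema6d there was at 0.33 (adjusted p = 0.140) and 0.12 (0.556), and Sema3e in GABAergic neurons at 0.39 (0.140) and 0.20 (0.695). An unadjusted p under 0.05 was found there for 1 member at each resolution, Sema3e at 0.4 and Sema5b at 0.8.

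Within single clusters, Sema5b was called in Glut 2 alone. No member was called in Glut 1, Glut 3 or Glut 5 (0.823%, 0.124% and 0.468% of all genes), and Sema5b did not reach the filter in Glut 1 or Glut 3. In Glut 2 it was at 15.7, 24.1 and 22.4 CPM in aplCoA and at 6.57, 2.31 and 2.93 in pplCoA (2.36 ± 0.36, edgeR adjusted p = 0.0141). The filter was applied again inside each cluster, where either domain sufficed. Whether Sema5b reached it in Glut 2 through aplCoA alone was not counted, and no fit without the filter was run there. In the same cluster, where 5.05% of all genes were called, 5 other members were called, namely Plxna4 (0.84 ± 0.17), Nrp2 (-0.62 ± 0.11), Sema5a (-0.66 ± 0.16), Sema4a (-0.97 ± 0.24) and Sema6a (-1.48 ± 0.25). Sema4a and Sema5a moved there against their change over all glutamatergic neurons. In Glut 1, where 0.823% of all genes were called, Sema5a was at 13.9, 74.4 and 23.4 CPM in aplCoA and 6.42, 4.53 and 4.34 in pplCoA (2.66 ± 0.55, edgeR adjusted p = 0.0506). Glut 2 held 60.3% of the Sema5a UMIs of glutamatergic nuclei in pplCoA. In GABA 5, where 1.89% of all genes were called, Plxna4 was called (0.77 ± 0.21, adjusted p = 0.0488). In the Vip-like GABA 3 itself, Sema5b changed by -0.28 ± 0.14 (adjusted p = 0.354), and in GABA 5 Sema3e changed by 0.10 ± 0.15 (adjusted p = 0.878). Whether Glut 2 holds more than 1 kind of nucleus was not tested.

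**Figure D5:**
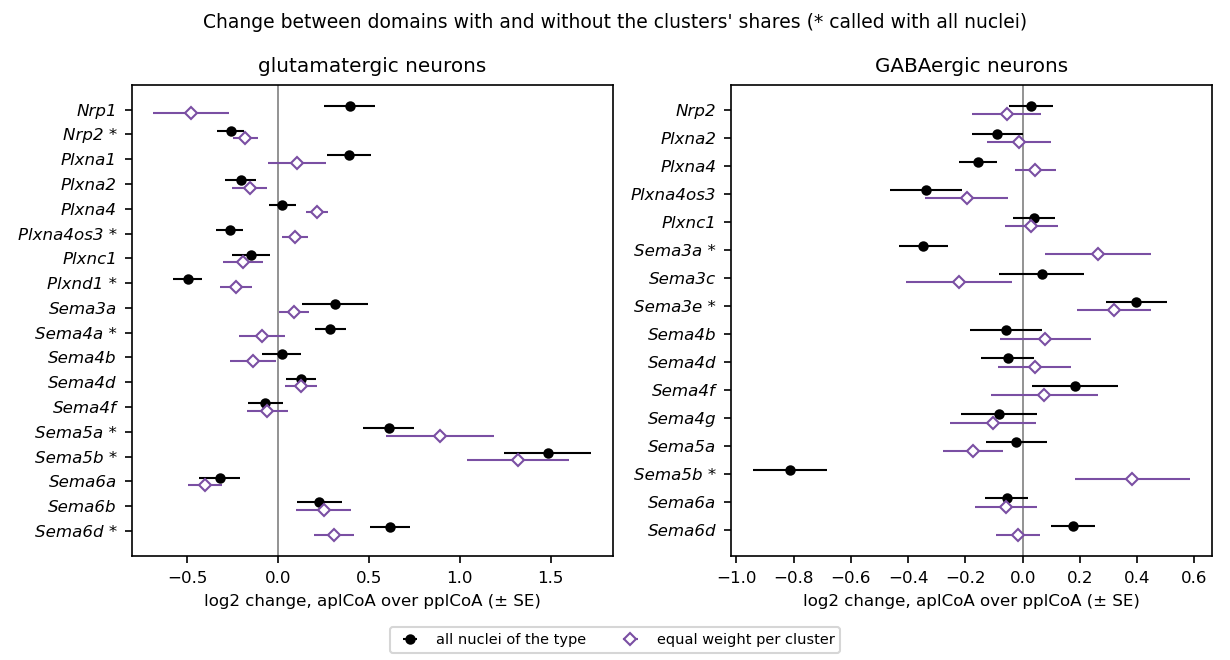
Log2 change from pplCoA to aplCoA (± SE) of the members tested, over all nuclei of the type (black) and with equal weight for each cluster compared (open diamonds). In glutamatergic neurons Sema5b, over Glut 1, Glut 2, Glut 3 and Glut 5 only, stays near its value over all nuclei. In GABAergic neurons Sema5b and Sema3a change sign.

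The other genes listed for the pathway, 51 in all, were read beside the members. They were binding partners, further neuropilin ligands, proteins that act inside the cell, and Plxdc1 and Plxdc2 as separate genes. L1cam, which had been planned as a binding partner, was missed when the list was read. Between domains, 4 of 33 tested were higher in aplCoA glutamatergic neurons and 4 lower, beside 10.1% and 10.6% of all genes. Higher were Dpysl5 (1.28 ± 0.30), a collapsin response mediator, the lymphatic growth factor gene Vegfc (1.23 ± 0.14) and the actin-severing Cfl1 (0.82 ± 0.15), and lower were Sh3bp1 (-0.49 ± 0.10), Mical2 (-0.48 ± 0.08), an oxidase that acts on actin below plexins, and the small GTPase gene Mras (-0.32 ± 0.10), as the 3 largest in each direction. In GABAergic neurons, 2 of 34 were higher, Vegfc (0.46 ± 0.12) and Cfl1 (0.42 ± 0.11), and 2 were lower, Plxdc2 (-0.27 ± 0.07) and the adhesion molecule Nrcam (-0.26 ± 0.08), beside 4.58% and 5.64% of all genes. In OPCs, Cfl1 was higher in aplCoA (0.84 ± 0.13) and the other 24 tested were not called, beside 6.53% of all genes. No pathway gene was called in the remaining classes.

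Between classes, 10 of 41 pathway genes were at least 2-fold higher in neurons and 11 in glia, beside 22.8% and 14.2% of all genes, led in neurons by Vegfc (4.16), Mical2 (3.70) and the cell adhesion molecule Chl1 (3.11), and in glia by Cspg4 (-4.24), which is also among the OPC markers, Tyrobp (-2.39) and Trem2 (-2.38). In OPCs against MOLs, 9 of 27 were higher in OPCs and 6 in MOLs, beside 23.4% and 15% of all genes, with Dpysl3 at 5.59, Chl1 at 4.36 and the contactin gene Cntn2 at -6.13. In glutamatergic against GABAergic neurons, 2 of 34 were higher, Rras2 (1.45) and Mical2 (1.08), and 4 lower, led by Dpysl5 (-2.67) and the kinase gene Limk1 (-1.51), beside 9.16% and 6.05% of all genes. In microglia against macrophages, 8 of 25 were higher in microglia, beside 11.8% of all genes, led by Plxdc2 (4.33), Mical3 (3.95) and Plxdc1 (3.16). In VLMCs against ABCs, 3 of 25 were higher in VLMCs, led by the integrin gene Itga1 (4.43), and 8 in ABCs, led by Mical2 (-2.21), beside 12.9% and 11.9% of all genes.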

How the data were processed

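Single-nucleus RNA-seq counts were analysed for 7 libraries, which gave 3 replicates of aplCoA and 3 of pplCoA. The authors deposited UMI counts per gene and barcode, unfiltered, made with Cell Ranger 5.0.0 per the submitters' processing notes, although the headers of the deposited count matrices name version 4; intronic reads were counted and gene coordinates are those of GRCm38. Barcodes with at least 1000 genes were kept (52201), then limited by UMIs (51538, within 5 median absolute deviations above the median) and by mitochondrial and ribosomal shares (50535), and likely doublets were removed by score at 1% per 1000 nuclei (46412).

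Nuclei were clustered with scanpy 1.11.5 in Python 3.11.15 on Pearson residuals of 5000 variable genes without the members (50 components, 15 neighbours, resolution 1 for classes), named from marker lists, and neurons were clustered again at a resolution of 0.2, the value that gave a number of glutamatergic clusters nearest to the study's 14. Counts were summed per class and replicate and tested with edgeR 4.0.16 in R 4.3.3 (quasi-likelihood, TMM scaling, Benjamini-Hochberg over all genes tested). A class entered with 20 nuclei in each replicate (10 for macrophages), and a gene when seen in 10% of its nuclei in either group. Calls were made at an adjusted p under 0.05, with at least a 2-fold difference between classes. Equal weighting of clusters used limma 3.58.1 on log2 CPM, and DESeq2 1.42.0 was an alternative. The script was tested on simulated counts: changes of 0.5 on the log2 scale were recovered for 20% of 200 genes in glutamatergic and 14% in GABAergic neurons. The spread between replicates was set the same for every simulated gene.

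The members and the marker and pathway lists were chosen with earlier results of these data known. Members called are named in each comparison, or where none was called the member with the smallest p, and at most 3 pathway genes called in each direction. The graph step of the clustering was replaced once after results had been seen, because an earlier form gave other neuron clusters on another processor. Calls with equal weight per cluster had differed between the forms, and under the first form no member, Sema5b included, was called that way, which is why other resolutions were added. Same-numbered replicates deviated together in every pair (correlation over 0.1) only in microglia (0.606, 0.146 and 0.140) and VLMCs (0.315, 0.191 and 0.178), and the block left 0 members called in both. Median changes of all genes moved by under 0.02 between TMM and DESeq2 size factors. Endothelial and mural cells were left out for their number, and protein sequences were not used here.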

Additional observations from a re-analysis of the deposited data

Results flagged for a closer look

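Of 29 groups of 6 replicates examined for a replicate far from the others, 4 had one, where chance gives about 1 in 20. In macrophages, the lowest replicate of Nrp1 was at 637 CPM and the next at 1408. In ABCs, the highest replicate of Sema3c was at 93.4 CPM and the next at 48.7. In NFOLs, the highest replicate of Sema4d was at 671 CPM and the next at 550.2, and the highest of Sema4f at 55.1 and the next at 18.7.

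The change between domains differed between neuron types for 2 members by the interaction test in edgeR. It was 2.22 higher on the log2 scale in glutamatergic than in GABAergic neurons for Sema5b and 0.47 higher for Sema6d.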

How the results depend on the processing

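Percentages in brackets are shares of all genes called under the same setting. In place of the 7 members in glutamatergic neurons (20.7% of all genes), 13 of 34 tested were called with no filter on low counts (12.3%, without Sema4a and Plxna4os3), 2 at the p and fold cut-offs the study set for marker genes (0.01 and 1.5-fold, 5.02% with Benjamini-Hochberg), the same number when these were applied with a likelihood ratio test and the study's Bonferroni correction (4.95%), 4 with library 1 or library 2 of aplCoA replicate 1 alone (16.2% and 15.8%), 4 with classes from marker UMIs (14%), 0 within Glut 1, Glut 3 or Glut 5 alone (0.823%, 0.124% and 0.468%), 2 with equal weight per cluster (5.81%), and 1 at each finer resolution (3.83% and 2.89%). The likelihood ratio test and DESeq2 each called 10 (24.5% and 25%). In place of the 3 members in GABAergic neurons (10.2%), 1 was called at the study's cut-offs (2.43%, and 1.86% with its correction) or with library 1 alone (2.38%), 0 within GABA 1, GABA 2, GABA 3, GABA 4, GABA 7 or GABA 8 alone (0.0215% to 4.21%), 1 within GABA 5 (Plxna4, 1.89%), and 0 with equal weight per cluster at any resolution (3.6% to 6.06%). Leaving out 1 replicate at a time gave 3 to 7 calls in glutamatergic (8.54% to 25.1%) and 1 to 4 in GABAergic neurons (3.23% to 10.2%), 0 to 1 in astrocytes (1 without pplCoA replicate 1, 5.32%) and 0 in the other classes. The 0 of astrocytes became 2 with no filter (3.04%) and 1 with the likelihood ratio test (4.56%) or DESeq2 (3.82%), the 0 of NFOLs became 8 with classes from marker UMIs (12.8%), the 0 of ABCs 1 with no filter (0.471%), and the 2 of the interaction 6 with no filter (5.53%). With no filter, 33 members were tested in each of the next comparisons, and 18 were called in OPCs against MOLs (22.6%), 12 in microglia against macrophages (10.1%) and 10 in VLMCs against ABCs (14.9%). The resolution of the clusters changed which members were called with equal weight, and so did an earlier form of the graph.

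With the replicate number as a block, 6 members were called in glutamatergic neurons (19.7%), Nrp2 and Sema4a not among them, 2 in GABAergic neurons (9%), where Sema3e was then at an edgeR adjusted p of 0.0527, 1 in astrocytes (4.46%), 1 in ABCs (1.36%) and 0 in the other classes. In these 4 classes the same-numbered replicates of the domains did not all deviate together (correlations of 0.0967, -0.0667 and 0.130 for numbers 1 to 3 in glutamatergic neurons, 0.387, 0.231 and 0.0837 in astrocytes, and 0.209, 0.179 and 0.0411 in ABCs, against a limit of 0.1 for every pair), so the numbers were not taken as pairs. Every replicate deviated most like the one of its own number in VLMCs and ABCs. In astrocytes, OPCs, NFOLs, MOLs and microglia only replicate 1 did, and in glutamatergic and GABAergic neurons none did. Without the replicate block, the classes differed in 8 members for glutamatergic against GABAergic neurons (15.3%), 15 for neurons against glia (37.1%), 10 for OPCs against MOLs (38.4%), 7 for microglia against macrophages (22.3%) and 7 for VLMCs against ABCs (24.6%).

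Some changes turned their sign, and the cause was not tested. In glutamatergic neurons these were Nrp2 within Glut 1 (0.0208) and Glut 5 (0.0755), Plxna4os3 within Glut 2 (0.55) and Glut 3 (0.0676) and with equal weight per cluster (0.0926), Sema4a within Glut 2 (-0.97) and with equal weight (-0.0898), Sema5a within Glut 2 (-0.66), Sema6d within Glut 3 (-0.38), and Plxnd1 within Glut 3 (0.13) and with equal weight at a resolution of 0.8 (0.0386). In GABAergic neurons they were Sema5b within GABA 1 (0.29) and GABA 7 (1.52) and with equal weight at resolutions of 0.2, 0.4 and 0.8 (0.38, 0.24 and 0.46), Sema3a within GABA 5 (1.79) and with equal weight at the same resolutions (0.26, 0.40 and 0.23), and Sema3e within GABA 4 (-0.15) and GABA 7 (-0.0923). Over the alternatives, 139 of the single-member values between domains kept direction and threshold, 97 lost the threshold and 22 turned. Between classes, 441 kept both and 27 lost the threshold, most often Plxnb2 in neurons against glia and Sema6d in glutamatergic against GABAergic neurons (5 of 10 settings each), then Nrp2 in the latter and Sema5a in the former (3 of 10 each). All 6 values of the interaction kept both, but it was rerun only with DESeq2 size factors, edgeR's own filter and no filter. Leaving out replicates, keeping doublets, classes from marker UMIs and equal weight per cluster were not tried for the interaction.

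The precision rests on 3 pools a domain, so that p-values between domains measure the spread between pools. Those between classes and of the interaction, with replicate as a block, measure how class differences vary from pool to pool. For neurons against glia this spread was pooled over all the classes fitted, so those p-values do not measure how the difference of neurons and glia itself varied between pools. NFOLs and macrophages had the fewest nuclei, and in glia a level at or below the share of the glutamatergic markers was not read as expression.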
